A study of Mus musculus with 6 samples.

Results

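Interferon-stimulated genes and the interferon-inducible GTPases were examined as a group of 36 genes, chosen by symbol from a table of 25075 genes. The members were 18 genes typical of the type I interferon response (here type I effectors), 5 transcription factors of interferon signalling, 8 guanylate-binding proteins (GBPs) and 5 immunity-related GTPases (IRGs). All 36 symbols were in the table, and all 36 passed the filter on low counts that left 15261 genes for testing. RNA came from cells of the small intestine of B6 mice, sorted as Lin-CD90.2+KLRG1-. The labels name them ILC3s (group 3 innate lymphoid cells), a lymphocyte class without antigen receptors that lives in mucosal tissue. Libraries were made by Smart-seq2, which copies whole transcripts from small amounts of RNA, with 2000 sorted cells and 2 ng of RNA for each. The labels gave 3 control libraries of genotype Batffl/flPLZF-Cre- and 3 Batf-deficient libraries of genotype Batffl/flPLZF-Cre+, and neither age nor sex. All mice carried the floxed Batf gene, which encodes an AP-1 family transcription factor, and only the Batf-deficient group carried the PLZF-Cre transgene. Below, the groups are the libraries labelled Cre- (control) and Cre+ (Batf-deficient). PLZF is expressed in precursors of innate lymphoid cells and in some innate-like T cells, so the transgene is not specific to ILC3s. No group carried Cre with an intact Batf gene.

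Type I interferons signal through IFNAR1 and IFNAR2 to a complex that includes STAT2 and IRF9 and binds interferon-stimulated response elements (ISREs) in genes such as the Ifit, Oas and Mx families. Interferon-gamma, made by T cells, NK cells and some innate lymphoid cells, signals through IFNGR1 and IFNGR2, acts on genes with gamma-activated sites (GAS) and induces IRF1. GBPs and IRGs are GTPases that act on the membranes around intracellular microbes in mice, and interferon-gamma is their strong inducer, although many respond to type I interferon too.

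Library totals ran from 8228513 to 17334207 counts, and 3 counts corresponded to between 0.155 and 0.425 CPM, the unit used below, in which counts are set relative to library sizes scaled by the TMM method. With TMM scaling Batf, the targeted gene, went against the labels. It had 15.1, 15.3 and 18.9 CPM in the libraries labelled Cre- and 38.2, 41.3 and 41.2 CPM in the libraries labelled Cre+. Its log2 fold change was 1.29 (edgeR adjusted p = 1.70e-05), and -1.06 (edgeR adjusted p = 6.37e-05) when libraries were scaled to a panel of 18 genes shared by ILCs and T cells. On that panel scaling the direction was the one the labels give. In TMM-scaled CPM the summed panel itself went from 1653 ± 31.9 to 9418 ± 257 (SD, n = 3 each). Which exons the reads came from is not shown by counts per gene. Whether the labels of the groups were exchanged was not tested, and an exchange would turn the direction of every difference below. The groups also differed in tissue RNA. Summed pancreatic acinar markers were at 44538 to 47833 CPM in the libraries labelled Cre- and 1.38 to 2.33 CPM in the other libraries. Xist was at 0.399 to 1.32 CPM in the libraries labelled Cre- and at 172 to 264 CPM in the libraries labelled Cre+, while the Y-linked Ddx3y was at 68.9 to 114 and 80.7 to 115 CPM. Each library labelled Cre+ thus held both Xist and Y-linked transcripts. A difference in the sex of the animals between the groups cannot be told apart from the labelled genotype. Hspa1a, a heat shock gene, was at 65.0 to 83.4 CPM in the libraries labelled Cre- and at 24493 to 25065 CPM in the others. The part of these differences in the results below was not tested.

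The GTPases and the type I effectors moved apart. With TMM scaling, 7 of 8 GBPs and 3 of 5 IRGs were higher in the libraries labelled Cre+, whereas 10 of 18 type I effectors were lower there. With panel scaling no member was higher and 31 of 36 were lower. Over all 36 members 14 were higher, 11 were lower and 11 did not pass an adjusted p of 0.05 (edgeR). Of all genes tested, 64.4% passed, 30.2% as higher and 34.1% as lower, so the share of members called was near the background. The median log2 fold change was -0.88 over the type I effectors, 0.30 over the transcription factors, 1.58 over the GBPs and 1.52 over the IRGs, against 0.02 over all genes tested. CPM values of the groups did not overlap for 16 members higher and 12 lower, beside 34.7% and 36.5% of all genes tested (71.2% in either direction). With panel scaling 85.9% of all genes tested were lower, 2.17% were higher (88.1% called in either direction) and the median of all genes was -2.33. That scaling gave medians of -3.23 for the type I effectors and -0.81 for the GBPs and IRGs together. In bulk RNA, fewer cells of a type and less RNA per cell cannot be told apart.

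**Figure D1:**
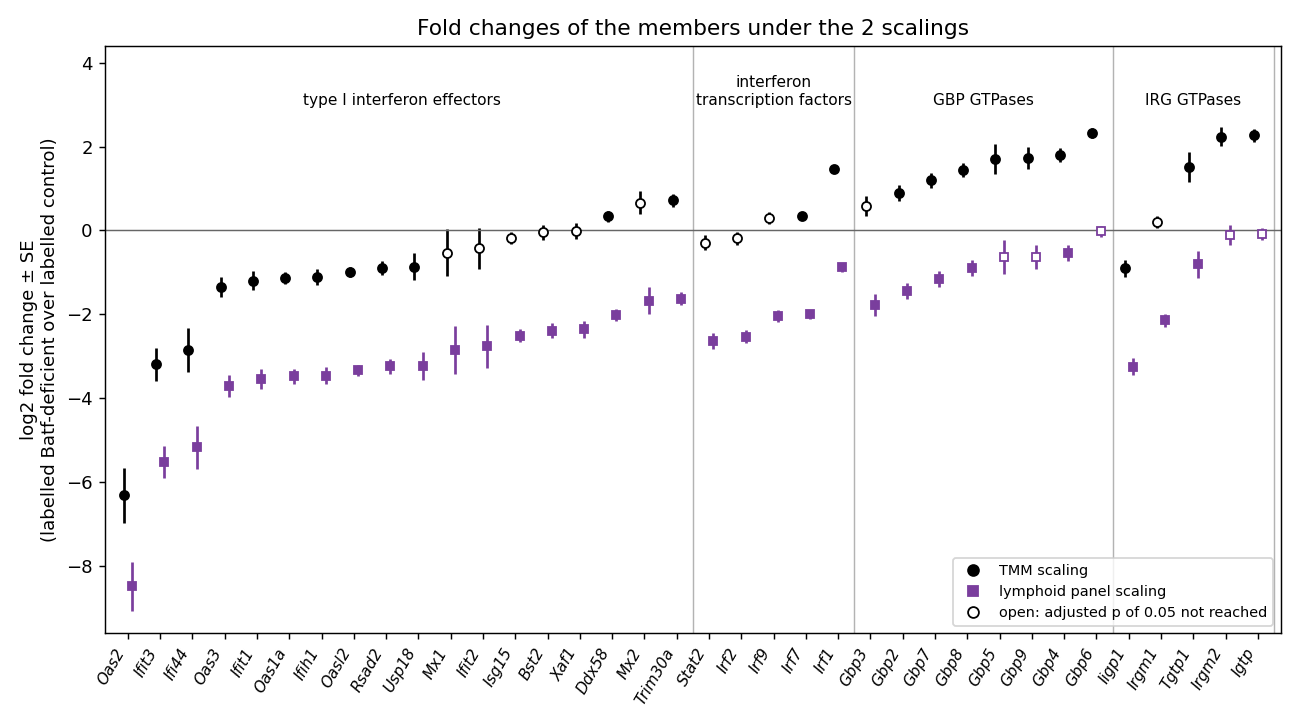
Log2 fold changes (Cre+ over Cre-, edgeR, bars are SE) of the 36 members with TMM scaling (circles) and with scaling to the lymphoid panel (squares). With TMM scaling the GTPases other than Iigp1 lie above 0 and most type I effectors below, and panel scaling moves all members down, to between -8.49 and -0.02.

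The distance between the families did not rest on a scaling factor. Within each library the counts of the 13 GBP and IRG genes were divided by the counts of the 18 type I effectors, a ratio from which library size cancels. It was 0.561, 0.686 and 0.632 in the libraries labelled Cre- and 2.50, 2.54 and 2.31 in the libraries labelled Cre+. Every library labelled Cre+ was above every library labelled Cre-. Without Igtp and Gbp6, the most abundant GTPases of the libraries labelled Cre+, the ratio was 0.420 to 0.493 against 1.21 to 1.41, and without Oasl2 and Oas1a it was 0.767 to 0.921 against 2.80 to 3.03. The median log2 fold change of the GBPs and IRGs exceeded that of the type I effectors by 2.41 with TMM scaling and by 2.42 with panel scaling. A change of scaling shifts all genes by nearly the same amount, so these differences were bound to be close. In TMM-scaled CPM, the summed type I effectors went from 496 ± 26.9 to 362 ± 8.65 and the summed GTPases from 310 ± 14.7 to 887 ± 24.3 (SD, n = 3 each). With panel scaling the summed GTPases were lower, at 393 ± 2.54 against 700 ± 29.3 CPM.

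**Figure D2:**
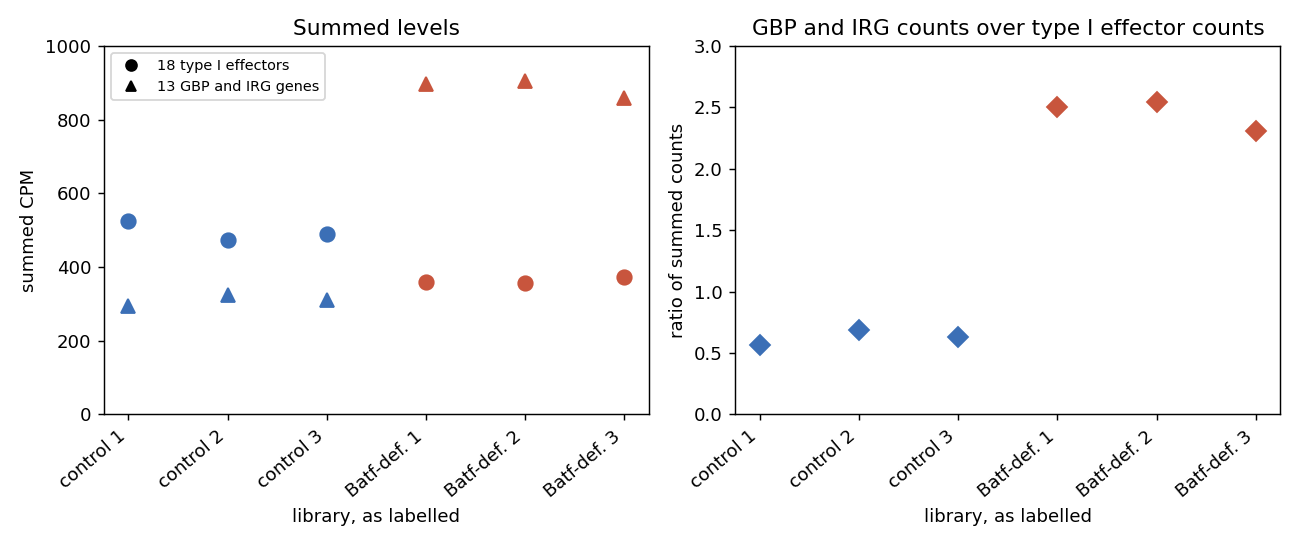
Summed CPM of the type I effectors and of the GBP and IRG genes in each library (left, TMM scaling) and the ratio of their summed counts (right). Blue marks libraries labelled Cre- and red those labelled Cre+, and the ratio is at most 0.686 in the former and at least 2.31 in the latter.

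Among the type I effectors, the oligoadenylate synthetases, which make the second messenger that activates RNase L, were all lower in the libraries labelled Cre+. Oas2 (chromosome 5, 120730333 to 120749853, mm10) had 8.27, 5.71 and 6.26 CPM in the libraries labelled Cre- and 0, 0.142 and 0.0803 CPM in the other libraries. These last values rest on 2 counts in all, so that Oas2 was 87.0-fold higher in the libraries labelled Cre- (95% counting interval 23.9 to 721). The groups did not overlap, and the edgeR adjusted p was 3.95e-06. Oasl2 (chromosome 5, 114896936 to 114912234), a synthetase-like protein, had 75.6, 67.8 and 69.3 CPM against 36.2, 35.0 and 35.8 CPM. The libraries of each group lay close together, and the log2 fold change was -0.99 (edgeR adjusted p = 1.27e-05, SE 0.12). Oas1a and Oas3 fell by 1.13 and 1.36 on the log2 scale. Oas1a shared 57.6% of its annotated 50-base words with its neighbour Oas1g, which fell by 4.72, and the summed counts of both went from 84.9 ± 2.50 to 26.7 ± 3.40 CPM (log2 fold change -1.67). On panel scaling the 4 Oas members were at -8.49 to -3.34.

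The Ifit genes, whose products bind viral RNA, differed among themselves. Ifit3 (chromosome 19, 34583531 to 34588731) had 8.27, 12.2 and 8.13 CPM in the libraries labelled Cre- and 1.24, 0.709 and 1.12 CPM in the libraries labelled Cre+. This was the next largest decrease of the 36 after Oas2, at -3.19 (edgeR adjusted p = 1.82e-05, SE 0.39), with no overlap between groups. It shares 51.2% of its 50-base words with Ifit3b, and summed with it the log2 fold change was -2.99. Ifit1 had 24.1 to 41.8 CPM against 12.2 to 16.9 CPM and fell by 1.20. Ifit2, near 2 CPM in both groups, did not pass (log2 fold change -0.43, edgeR adjusted p = 0.468).

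Of the other antiviral effectors, 4 were lower, 5 had no call and 2 were higher with TMM scaling. Ifi44, an interferon-induced protein of uncertain function, had 6.58, 3.20 and 6.21 CPM against 0.415, 0.851 and 0.884 CPM. The groups did not overlap, and the log2 fold change was -2.85 (edgeR adjusted p = 0.000443, SE 0.52). Ifih1, the RNA sensor MDA5, Rsad2, the antiviral enzyme viperin, and Usp18, which removes ISG15 and restrains IFNAR2, fell by 1.11, 0.89 and 0.87. The call of Usp18 was the weakest of the 4 lower ones (edgeR adjusted p = 0.0323). It was lost without Cre- replicate 1 (log2 fold change -0.49, edgeR adjusted p = 0.149), which had the highest Usp18 value. It was also lost when any of the libraries labelled Cre+ was left out.

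The effectors with the highest levels per kilobase did not pass. Isg15, a ubiquitin-like modifier, had 68.2, 63.9 and 72.6 CPM in the libraries labelled Cre- and 55.6, 52.6 and 73.1 CPM in the other libraries. Replicate 3 of the libraries labelled Cre+ lay above every control and the other 2 lay below them, and the log2 fold change was -0.17 (edgeR adjusted p = 0.300, SE 0.14). Without that library it was -0.42 (edgeR adjusted p = 0.0182). Bst2, or tetherin, which holds budding virions at the cell surface, had 46.0, 40.4 and 65.0 CPM against 50.9, 43.5 and 52.4 CPM (log2 fold change -0.05). The groups overlapped for Bst2, as they did for Xaf1 at -0.02. Mx1 and Mx2, genes of the dynamin-like GTPase family, had -0.53 and 0.67 with edgeR adjusted p of 0.424 and 0.0557. Mx2 is annotated as a polymorphic pseudogene, so its counts need not stand for a working GTPase. The groups overlapped for Mx1 but not for Mx2.

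The RNA sensor RIG-I gene Ddx58 and Trim30a, a ubiquitin ligase family member that restrains NF-kB signalling, were the type I effectors called higher. Trim30a had 24.6, 33.2 and 34.2 CPM against 51.9, 55.0 and 45.5 CPM, without overlap (log2 fold change 0.72, edgeR adjusted p = 0.00164, SE 0.16). Ddx58 was at 0.34 (edgeR adjusted p = 0.0438). Its call was lost when any single library other than Cre- replicate 1 was left out, with log2 fold changes of 0.23 to 0.34 over those fits. With library totals in place of TMM the call of Trim30a was lost (0.34, edgeR adjusted p = 0.0665). On panel scaling Trim30a and Ddx58 were lower, at -1.62 and -2.01.

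**Figure D3:**
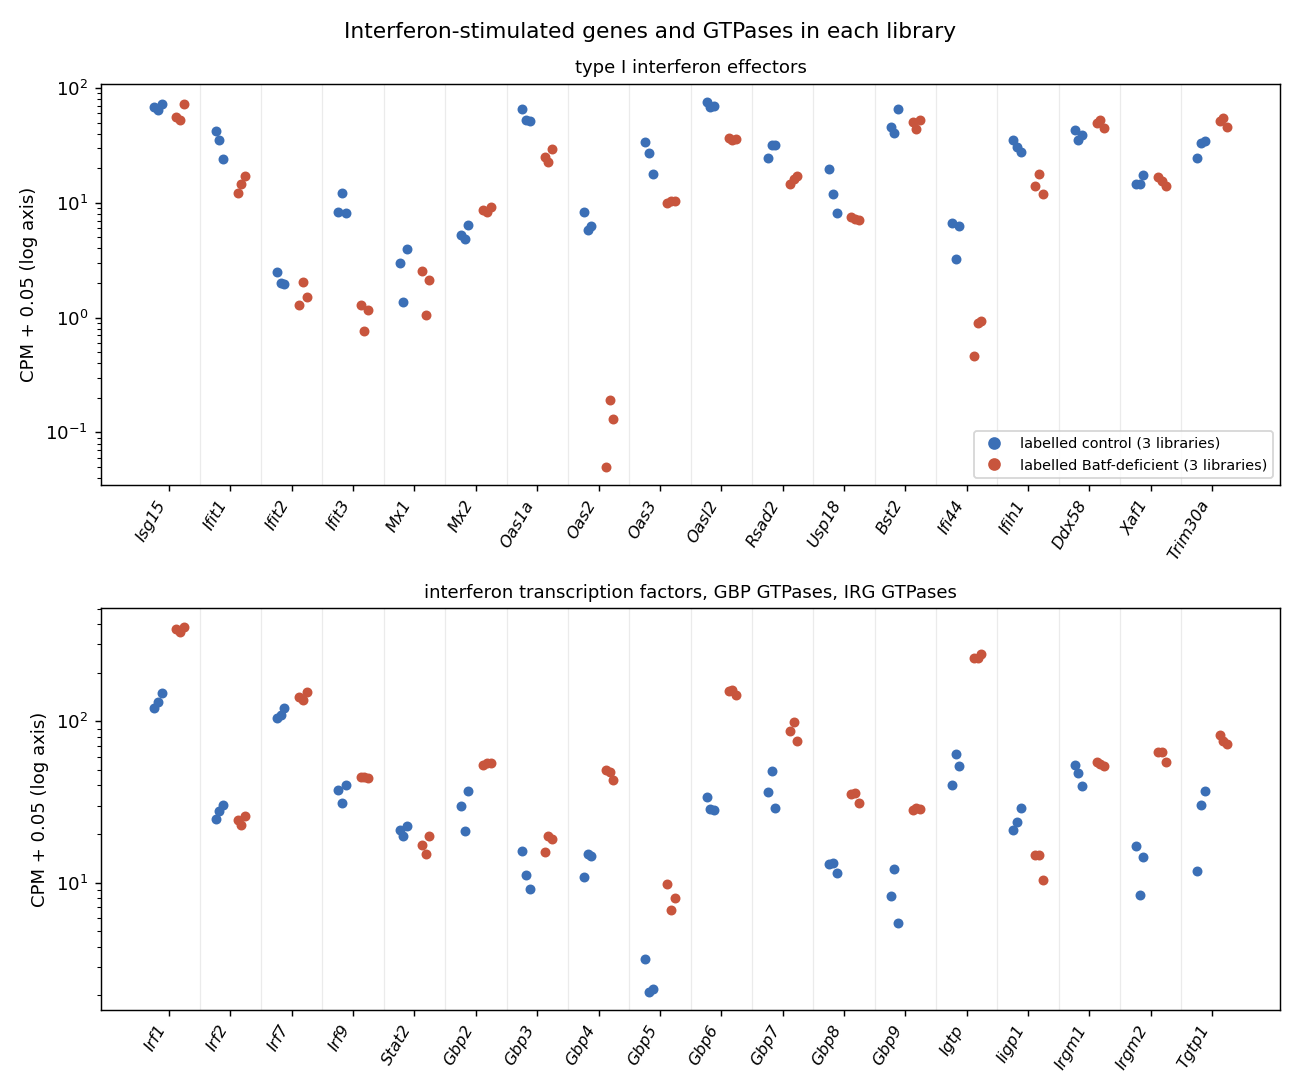
CPM (TMM scaling, plus 0.05, log axis) of each member in each library, with 3 libraries labelled Cre- (blue) and 3 labelled Cre+ (red) per gene. The red points lie below the blue ones without overlap for 10 type I effectors, among them Oas2 and Ifit3, and for Iigp1 and Stat2. They lie above without overlap for 7 of the GBPs and for Igtp, Irgm2 and Tgtp1. The same holds for the type I effectors Mx2, Ddx58 and Trim30a and for Irf1, Irf7 and Irf9.

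Of the transcription factors, Irf1 and Irf7 were higher with TMM scaling and lower with panel scaling, and the others had no call with TMM scaling. Irf1 (chromosome 11, 53770014 to 53778374), the interferon-gamma induced factor that drives many GBP genes, had 121, 132 and 150 CPM in the libraries labelled Cre-. It had 372, 357 and 387 CPM in the libraries labelled Cre+. The groups were well apart, with a log2 fold change of 1.46 (edgeR adjusted p = 1.45e-07, SE 0.10) and of -0.88 on panel scaling. Irf7, the main amplifier of type I interferon production, had 105, 110 and 121 CPM against 142, 135 and 152 CPM. It did not overlap between groups, but the change was small at 0.35 (edgeR adjusted p = 0.0111, SE 0.10). Its call was lost without replicate 1 or replicate 3 of the libraries labelled Cre+ (edgeR adjusted p = 0.0916 and 0.101). Irf7 overlaps Phrf1 on the opposite strand, and the strand setting of the counting is not given in the sources used here. Phrf1 was itself higher, with a log2 fold change of 0.998 (edgeR adjusted p = 1.54e-05), and at -1.35 with panel scaling. Whether reads of Phrf1 were counted for Irf7 was not tested. Irf9, the DNA-binding part of the type I interferon complex, had 37.7, 31.2 and 40.2 CPM against 45.2, 45.2 and 44.3 CPM (0.30, edgeR adjusted p = 0.0724). Its groups did not overlap by CPM, although the test was not passed. Irf9 overlaps Rnf31 (log2 fold change 0.41, no call) on the same strand. Stat2, its partner, and Irf2, an antagonist of Irf1, were at -0.30 and -0.19 without a call.

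Of the 8 GBP genes, 7 passed as higher with TMM scaling, and none did with panel scaling. Gbp6 (chromosome 5, 105270702 to 105293698) had 34.0, 28.7 and 28.3 CPM in the libraries labelled Cre- and 154, 156 and 146 CPM in the libraries labelled Cre+. This was the largest increase among the 36, at 5.01-fold (log2 fold change 2.33, edgeR adjusted p = 6.07e-09, SE 0.12), and its value with panel scaling was -0.02. Gbp6 shares 70.7% of its 50-base words with other annotated genes, and 65.0% with Gm43302, which overlaps it on the same strand. Counts of Gbp6 summed with its near-copy Gbp10 gave 2.39, and this sum did not include Gm43302. Gbp4 had 10.8, 15.1 and 14.5 CPM against 50.1, 48.8 and 42.9 CPM (1.80, edgeR adjusted p = 1.75e-06, SE 0.17). Gbp7 had 36.4, 48.9 and 28.8 CPM against 87.0, 99.4 and 75.9 CPM (1.20, edgeR adjusted p = 0.000117, SE 0.18). The libraries of a group varied more for Gbp7 than for Gbp6, and neither gene overlapped between groups.

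Gbp2 had 29.9, 20.9 and 37.2 CPM against 53.2, 55.2 and 55.2 CPM (0.89, edgeR adjusted p = 0.00122, SE 0.19). Gbp9 had 8.18, 12.2 and 5.59 CPM against 28.1, 29.1 and 28.5 CPM (1.72, edgeR adjusted p = 0.000100, SE 0.26). For both genes the spread lay in the libraries labelled Cre-, and the libraries labelled Cre+ were close to each other. Gbp5, which promotes inflammasome assembly, and Gbp8 had 1.71 and 1.45. Gbp3 had 0.58 and missed the threshold by a narrow margin (edgeR adjusted p = 0.0501), with 1 control library inside the range of the other group. Without Cre- replicate 1, which was that library, it passed at 0.81 (edgeR adjusted p = 0.00888).

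GBP genes lie in clusters on chromosomes 3 and 5. The 4 members on chromosome 5 (Gbp4, Gbp6, Gbp8 and Gbp9) had log2 fold changes of 1.45 to 2.33, and the 4 on chromosome 3 (Gbp2, Gbp3, Gbp5 and Gbp7) had 0.58 to 1.71. With panel scaling these were -0.90 to -0.02 and -1.77 to -0.64. Annotated spans of Gbp4, Gbp8 and Gbp9 overlap on the same strand, so reads in their shared part could be assigned to any of them. The difference between clusters was not tested.

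The IRGs were not uniform. Igtp (chromosome 11, 58199556 to 58207591), one of the regulatory IRGs that guard the cell's own membranes, had 40.4, 62.8 and 52.8 CPM in the libraries labelled Cre-. In the libraries labelled Cre+ it had 246, 246 and 261 CPM. The groups did not overlap, and the change was 4.81-fold (log2 fold change 2.27, edgeR adjusted p = 5.92e-08, SE 0.15). Irgm2 (chromosome 11, 58199618 to 58222782), its neighbour and also a regulatory IRG, had 16.7, 8.27 and 14.4 CPM against 64.0, 64.8 and 56.2 CPM. It was 4.72-fold higher (log2 fold change 2.24, edgeR adjusted p = 2.84e-06, SE 0.22). The annotated spans of these 2 genes overlap on the same strand, and Igtp shares 11.8% of its 50-base words with Irgm2. On panel scaling Igtp and Irgm2 were at -0.08 and -0.11, with no call.

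Irgm1, the third regulatory IRG, did not follow them. It had 53.9, 47.8 and 39.7 CPM against 56.2, 54.3 and 52.5 CPM, with overlapping groups (log2 fold change 0.21, edgeR adjusted p = 0.206, SE 0.14). Iigp1, an effector IRG that coats the vacuoles of intracellular parasites, was lower, at 21.1, 23.7 and 29.0 CPM against 14.8, 14.7 and 10.4 CPM. It did not overlap between groups and fell by 0.90 on the log2 scale (edgeR adjusted p = 0.00260, SE 0.21). It was the only one of the 13 GTPases called lower with TMM scaling.

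Tgtp1, another effector IRG, had 11.7, 30.1 and 37.2 CPM in the libraries labelled Cre- and 82.6, 75.7 and 72.2 CPM in the other libraries (1.52, edgeR adjusted p = 0.00694, SE 0.36). Its libraries labelled Cre- were far apart. Its near-copy Tgtp2 spread in the opposite order there, at 56.2, 40.8 and 32.1 CPM, and shares 85.8% of its 50-base words with Tgtp1. The summed counts of Tgtp1 and Tgtp2 were 68.0, 70.9 and 69.3 CPM in the libraries labelled Cre- and 194, 195 and 174 CPM in the libraries labelled Cre+. The control spread was thus small in the sum, and the SE was 0.10 in place of 0.36, for a log2 fold change of 1.43 (edgeR adjusted p = 1.17e-07).

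Shown side by side are upstream sequences of some members of each family, all of them holding ISRE or GAS letters. They are the 120 bases before the annotated start site in RefSeq on GRCm38.p6, written 5′ to 3′ on the gene's strand. Capitals mark matches to the ISRE (GAAA, any 2 bases, GAAA, searched on both strands) or to TTCNNNGAA (GAS, which reads the same on both strands), and adjacent ISRE matches can overlap.
Isg15 (chr4:156200819-156200938, minus strand): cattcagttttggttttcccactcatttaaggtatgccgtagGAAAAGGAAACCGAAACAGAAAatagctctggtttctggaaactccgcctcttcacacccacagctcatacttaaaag
Oas1a (chr5:120907526-120907645, minus strand): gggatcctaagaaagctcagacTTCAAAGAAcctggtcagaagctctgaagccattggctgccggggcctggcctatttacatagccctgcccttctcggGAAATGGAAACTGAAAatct
Rsad2 (chr12:26456453-26456572, minus strand): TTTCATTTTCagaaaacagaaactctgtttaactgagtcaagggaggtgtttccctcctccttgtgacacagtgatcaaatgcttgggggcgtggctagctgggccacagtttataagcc
Irf1 (chr11:53769894-53770013, plus strand): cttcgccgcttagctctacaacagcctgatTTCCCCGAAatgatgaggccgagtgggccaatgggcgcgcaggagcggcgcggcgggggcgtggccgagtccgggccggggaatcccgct
Gbp7 (chr3:142530216-142530335, plus strand): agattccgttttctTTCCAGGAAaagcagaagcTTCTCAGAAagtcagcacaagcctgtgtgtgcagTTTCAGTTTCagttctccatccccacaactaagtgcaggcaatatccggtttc
Igtp (chr11:58199436-58199555, plus strand): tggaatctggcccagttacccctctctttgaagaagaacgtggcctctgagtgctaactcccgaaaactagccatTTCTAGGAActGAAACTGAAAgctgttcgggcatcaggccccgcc
Irgm2 (chr11:58214857-58214976, plus strand): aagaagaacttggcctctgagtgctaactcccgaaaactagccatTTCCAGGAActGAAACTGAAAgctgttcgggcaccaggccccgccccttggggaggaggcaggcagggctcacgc
Tgtp1 (chr11:48992247-48992366, minus strand): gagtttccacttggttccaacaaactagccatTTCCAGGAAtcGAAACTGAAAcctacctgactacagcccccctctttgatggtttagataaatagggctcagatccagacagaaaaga
Isg15, Oas1a and Rsad2 of the type I effectors carry ISRE letters, Oas1a also has a GAS match, and Irf1 carries GAS letters alone in this stretch. Gbp7 has 1 ISRE and 2 GAS matches. Igtp, Irgm2 and Tgtp1 carry a GAS match followed within 5 bases by an ISRE match. The stretches shown are not typical of every member. Those of the type I effectors Oasl2, Ifih1, Xaf1, Ifi44, Ddx58 and Ifit2 hold no match. Those of Ifit3 and Bst2 hold only the end of a match. Those of Irf2, Irf7, Irf9 and Stat2 hold no match, and that of Gbp2 holds an ISRE match alone.

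A promoter window of 300 bases, 250 of them before the start, was matched for 27 of the 36 members. None was matched for Gbp4, Gbp6, Gbp8, Gbp9, Iigp1, Oas2, Mx1, Mx2 and Usp18. The motif counts thus leave out every GBP member on chromosome 5 and the only GTPase called lower with TMM scaling. An ISRE match was present for 20 of the 27, against 3.99% of 27025 genes with a window. Among members with a window it was present for 8 of 8 GBP and IRG genes and for 10 of 14 type I effectors. A GAS match was present for 5 of the 8 GTPases and 3 of the 14 type I effectors, against 9.55% of all genes. The pair of a GAS match and an ISRE match at most 5 bases after it, a pattern chosen after the windows were seen, was found in 11 genes (0.0407%). Among these were 4 members, Igtp, Irgm2, Tgtp1 and Bst2, of which the 3 IRGs were higher with TMM scaling and Bst2 had no call. Tgtp2, the near-copy of Tgtp1, and Gm12185, which overlaps Tgtp1 on the same strand, were also among the 11. As the pattern was chosen from the windows, its count among members cannot be weighed against the share of all genes. Irgm1, which had no call, held 2 ISRE matches and no GAS match. The upstream stretches of Igtp and Irgm2 are identical at 87 of 90 aligned bases (96.7%), so their motifs are not independent. These matches describe letters in the windows and were not tested against the fold changes.

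Levels were compared between genes as CPM per kilobase of annotated exon. In the libraries labelled Cre- Isg15 was highest, at 90.3 ± 5.76, above Bst2 at 55.9 ± 14.3 and Irf1 at 33.9 ± 3.69 (SD, n = 3 each). The ranges of these 3 genes did not overlap there. In the libraries labelled Cre+ Igtp was highest, at 124 ± 4.49 CPM per kilobase, and ranked 6 of the 36 in the libraries labelled Cre-. It was followed by Irf1 at 93.6 ± 3.71 and Isg15 at 79.9 ± 14.6, whose ranges overlapped. The lowest member was Gbp5 in the libraries labelled Cre-, at 0.375, and Oas2 in the libraries labelled Cre+, at 0.0166 CPM per kilobase.

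Genes around this response were read from lists drawn up beside the members. Of the interferon genes 5 were in the table and only Ifng was tested. Ifng, which encodes interferon-gamma, had 4.51, 10.3 and 8.07 CPM against 68.9, 79.1 and 69.4 CPM (log2 fold change 3.22, edgeR adjusted p = 1.84e-07, SE 0.23). It stayed higher with panel scaling, at 0.88 (edgeR adjusted p = 0.00404). Of 10 receptors and signalling kinases, 5 were higher and 3 lower with TMM scaling, and 9 were lower with panel scaling. Ifngr1, the ligand-binding chain of the interferon-gamma receptor, was at 497 ± 29.6 and 2272 ± 255 CPM (2.19, and -0.16 with panel scaling). Its partner Ifngr2 had 68.0 ± 2.89 and 21.4 ± 2.84 CPM and fell by 1.68 on the log2 scale. Ifnar1 and Ifnar2, the chains of the type I interferon receptor, had 1.01 and 1.24 (-1.34 and -1.10 with panel scaling). Ifnlr1, the epithelial interferon-lambda receptor, went from 9.30 ± 2.07 to 0.326 ± 0.292 CPM and fell by 4.66.

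The counts below stand beside the 30.2% of all genes called higher and 34.1% called lower with TMM scaling. Of 41 other interferon-stimulated genes tested, 11 were higher and 18 lower with TMM scaling (median -0.33), and 39 were lower with panel scaling. Their summed level went the other way with TMM scaling, from 2512 ± 192 to 5949 ± 125 CPM, within which Ly6e, a membrane protein of lymphocytes, went from 878 ± 53.9 to 4694 ± 97.0 CPM. The log2 fold change of Ly6e was 2.42 (0.07 with panel scaling). Oasl1, Ifitm3, Trim25 and Ifitm2 fell by 3.41, 2.78, 1.90 and 1.65. Of 8 other GBP and IRG genes tested, none was lower and 5 were higher, with a median of 1.43 (-0.92 on panel scaling), among them Gbp2b at 1.77 and Tgtp2 at 1.37. Of 15 interferon-gamma responsive genes, mainly of antigen presentation, 11 were higher and 1 was lower (median 0.80), and 14 were lower with panel scaling. B2m, the class I light chain, was at 3.99 and, on panel scaling, at 1.64. The class I transactivator Nlrc5 and the peptide transporter gene Tap2 had 1.55 and 1.84, while Ciita, the class II transactivator (named after its value was seen), fell by 1.76. Of 14 sensors and adaptors tested, 2 of which are members, 7 were higher and 3 lower with TMM scaling, and none was higher and 13 were lower with panel scaling. The DNA sensor gene Aim2 was at 2.05 (-0.29 with panel scaling) and Tlr3, a sensor of double-stranded RNA, fell by 2.84. Of 8 feedback inhibitors, which include Isg15 and Usp18, 6 were higher and 1 lower, among them Ptpn6 at 1.85 and Socs1 at 0.80, and all 8 were lower with panel scaling.

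With TMM scaling, markers of other cell types moved with both families. In the libraries labelled Cre+, 10 of 12 markers of macrophages and dendritic cells were lower and 1 was higher, with a summed level of 563 to 601 CPM in the libraries labelled Cre- and 70.9 to 78.0 CPM in the others. Of 12 epithelial markers 11 were lower and none higher (10866 to 12016 against 315 to 349 CPM). Of 8 B and plasma cell markers 7 were lower (8389 to 8723 against 557 to 587 CPM), and of 11 stromal and endothelial markers 9 were lower and 1 higher (1065 to 1119 against 141 to 164 CPM). All 8 acinar markers were lower. All 10 ILC3 markers were higher with TMM scaling (1299 to 1479 against 9767 to 11267 CPM), with a median of 2.66, and of 0.31 with panel scaling. Of 10 T cell markers 8 were higher (318 to 349 against 2279 to 2283 CPM) and 1 was lower, Cd8a at -4.15, named after its value was seen. With panel scaling 6 T cell markers were higher and 3 lower. On that scaling the summed GTPases were lower (log2 ratio of group means -0.83), while the summed ILC3 and T cell markers were higher (0.61 and 0.44). The other summed marker lists and the summed type I effectors were lower on both scalings. No gene of these lists was at 0 in all libraries of a group. The part of these cell types in the levels of the interferon genes was not tested.

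**Figure D4:**
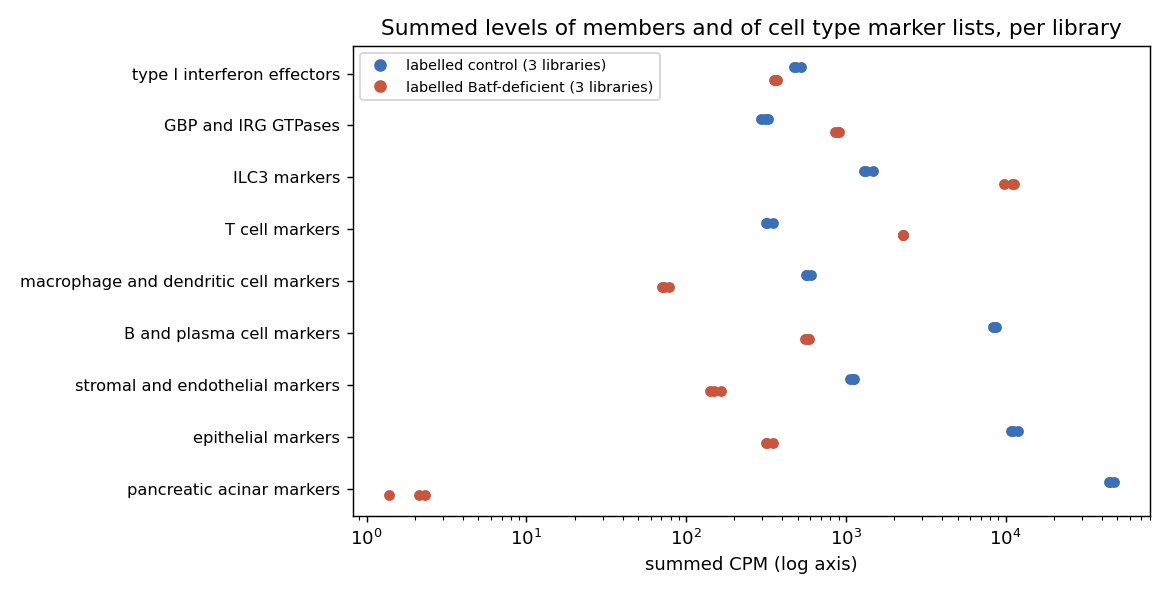
Summed CPM (TMM scaling, log axis) of the type I effectors, of the GBP and IRG genes and of 7 cell type marker lists in each library. On this scaling the GTPases share their direction with the ILC3 and T cell markers. The type I effectors share theirs with the macrophage, B cell, stromal, epithelial and acinar markers. Both families span narrower ranges than the markers (356 to 526 CPM for the type I effectors).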

How the data were processed

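RNA of 3 labelled control and 3 labelled Batf-deficient samples was measured by Smart-seq2, per the labels' protocols. The authors deposited a table of raw counts for 25075 gene symbols. The submitters' processing notes name mm10. Aligner, counter, annotation and strand setting: not given in the sources used here. Reads carry no molecular identifiers, so intervals and floors cover counting error only.

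Counts were tested in R 4.3.3 with edgeR 4.0.16: filterByExpr by group (minimum count 10), TMM, glmQLFit with robust=TRUE and glmQLFTest, two-sided, with group as the only term and Benjamini-Hochberg adjustment over all 15261 genes tested (threshold 0.05). Fold changes divide the Batf-deficient (Cre+) by the control (Cre-) group. TMM factors were 1.11 to 1.17 in the labelled control and 0.857 to 0.914 in the other libraries. Alternatives were library totals, DESeq2 1.42.0, limma 3.58.1 (voom), no filter, a replicate block, leaving out each library, summing Batf-deficient replicates 1 and 2, and scaling to the median ratio over 18 lymphoid genes. Gene positions, exon lengths and shared 50-base words come from GENCODE M21, also mm10, and upstream sequences from RefSeq (GRCm38.p6).

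Members, gene lists, panel and alternatives were chosen with earlier results of these data known. Members named with values in every library were, in each family, the 3 most abundant and the 3 with the largest change, plus others where a result turned on them. Each other list could give at most the 6 called genes of smallest p, besides Ifng and the receptor chains. A gene of the receptor and kinase list is not reported here by name. The series design calls the samples biological replicates. Replicates 1 and 2 of the Batf-deficient group differed least (mean chi-square per gene 2.36, against 14.8 to 24.2 for other pairs of a group). Nothing shows that these came from separate mice, and p-values then measure only the spread between these samples. Fold changes summing near-identical paralogues were added after seeing the data.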

Additional observations from a re-analysis of the deposited data

How the results depend on the processing

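With library totals 3048 genes were higher over the whole table (4612 with TMM), and 11 members were higher and 15 lower. With panel scaling 331 genes were higher and 13107 lower, 0 members were higher and 31 lower, and Batf reversed to -1.06. That scaling reversed these members to log2 fold changes of -1.67 for Mx2, -2.01 for Ddx58, -1.62 for Trim30a, -0.88 for Irf1, -1.996 for Irf7, -2.04 for Irf9, -1.45 for Gbp2, -1.77 for Gbp3, -0.54 for Gbp4, -0.64 for Gbp5, -0.024 for Gbp6, -1.16 for Gbp7, -0.90 for Gbp8, -0.63 for Gbp9, -0.078 for Igtp, -2.15 for Irgm1, -0.11 for Irgm2, -0.81 for Tgtp1. Library totals reversed Ddx58 to -0.044, Irf7 to -0.028, Irf9 to -0.076 and Irgm1 to -0.18. The summed type I effectors, at -0.46 (log2 ratio of group means) with TMM scaling, were at -0.84 with library totals, -2.81 with panel scaling and -0.88 as a median of log2 fold changes. The summed GTPases, at 1.52, were at 1.14 with library totals and reversed to -0.83 with panel scaling. The shifts under both scalings follow from their factors, whose choice moved the median of all genes to -0.36 with library totals and to -2.33 with the panel. DESeq2 called 13 members higher and 11 lower, and limma voom 15 and 10. With Batf-deficient replicates 1 and 2 summed as 1 sample 13 were higher and 10 lower, and Ddx58 and Usp18 lost their calls.

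Leaving out 1 library at a time gave 12 to 15 members higher, 10 to 11 lower and a Batf log2 fold change of 1.19 to 1.41, with 3603 to 4705 genes higher and 5149 to 5451 lower over the whole table. Bst2 and Xaf1, which had no call, turned to 0.19 and 0.088 without control replicate 3, and Xaf1 ranged from -0.14 to 0.088 over these fits. Replicate numbers shared between groups gave correlations of deviations of 0.01 to 0.06, so they were not treated as pairs, although each library correlated best with its own number for 2 of the 3 numbers. With the replicate block 14 members were higher and 11 lower, the same 25 genes. At 3 counts, levels under 0.155 to 0.425 CPM were not resolved, which limits Oas2 and Ifi44 in the libraries labelled Batf-deficient.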
